A study of Homo sapiens with 15 samples.

Results

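The sirtuins are the 7 lysine deacylases SIRT1 to SIRT7, and their transcripts were followed here in HT1080 cells, a human fibrosarcoma line, whose zinc-dependent lysine deacetylases KDAC6 or KDAC8 had been inactivated or inhibited. The members were the rows of the gene count table named SIRT1 to SIRT7, which were 7 of 60675 genes, each present in 1 row. Ribosomal RNA-depleted RNA was sequenced in 15 libraries that fell into 5 groups of 3. All 15 were HT1080 cells under a deacetylase inhibitor, so no untreated group entered the comparisons. The 6CD1m group carried HDAC6H216A, a substitution in the first catalytic domain of KDAC6, and received 1 µM Tubastatin A, a KDAC6 inhibitor, for 2 days. The 6CD2m group carried HDAC6H611A, in the second catalytic domain, and received the same dose for the same time. The 8CDm group carried HDAC8H143A in KDAC8 and received 5 µM PCI-34051, a KDAC8 inhibitor, for 2 days. WT cells received 1 µM Tubastatin A for 14 days in the fourth group and 5 µM PCI-34051 for 14 days in the fifth. In each comparison of a mutant line with WT, genotype and duration changed together and cannot be told apart. Whether each mutant line was 1 clone was not given in the sources used here, and the substitutions cannot be checked in counts per gene.

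Sirtuins remove acetyl and other acyl groups from lysine side chains and consume NAD+ in the reaction, which ties their activity to the metabolic state of the cell. They form a separate family from the zinc-dependent enzymes KDAC6 and KDAC8, and neither Tubastatin A nor PCI-34051 was designed against them. SIRT1, SIRT6 and SIRT7 act mainly in the nucleus, SIRT2 mainly in the cytosol, where it shares α-tubulin as a substrate with KDAC6, and SIRT3, SIRT4 and SIRT5 in mitochondria.

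The levels of some sirtuins moved with the standing of GC-rich against GC-poor genes in these libraries (below). The sirtuins share a catalytic core and differ widely in base composition. To show this, the coding stretch at the start of the conserved NAD+-binding fold is printed for each member from the transcript with the longest coding sequence (GENCODE 29, GRCh38), read 5′ to 3′ on the coding strand, with G and C in capitals.
SIRT1 (chr10:67889115-67891434, + strand, exons 3 and 4): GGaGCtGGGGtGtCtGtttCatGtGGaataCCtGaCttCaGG
SIRT2 (chr19:38889939-38890121, − strand, exons 5 and 6): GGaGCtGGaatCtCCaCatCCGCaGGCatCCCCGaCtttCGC
SIRT3 (chr11:233215-233383, − strand, exons 2 and 3): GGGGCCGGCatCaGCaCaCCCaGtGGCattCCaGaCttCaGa
SIRT4 (chr12:120303745-120303786, + strand, exon 2): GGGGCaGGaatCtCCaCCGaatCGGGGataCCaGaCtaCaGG
SIRT5 (chr6:13588387-13588428, + strand, exon 4): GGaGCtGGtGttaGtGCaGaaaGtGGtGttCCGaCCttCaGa
SIRT6 (chr19:4179286-4180822, − strand, exons 2 and 3): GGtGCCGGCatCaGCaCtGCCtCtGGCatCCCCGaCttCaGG
SIRT7 (chr17:81915658-81917632, − strand, exons 3 and 4): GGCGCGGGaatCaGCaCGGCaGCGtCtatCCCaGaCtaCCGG
Where 2 exons are given, the interval includes the intron between them. Of these 42 bases, 22 were G or C in SIRT1 and SIRT5 and 28 in SIRT6 and SIRT7. Over the whole coding sequence, 47.4% of SIRT1, 54.3% of SIRT5, 67.4% of SIRT6 and 64.6% of SIRT7 was G or C. Over the longest transcript of each gene, UTRs included, SIRT1 was the member poorest in GC at 40.5%. SIRT6 was the richest at 64.9%, higher than 96.4% of the tested protein-coding genes. By this measure, which is the one used below, SIRT7 stood at 56.5%, under SIRT2 at 60.1% and SIRT3 at 58.2%.

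The libraries held between 10932455 counts on genes (6CD1m replicate 1) and 19983710. Replicates correlated with r between 0.962 and 0.988, and no pair differed by as little as sampling noise. The libraries differed in how GC-rich genes stood against GC-poor ones. A GC tilt was taken for each library as the median log2 deviation of 4193 protein-coding genes above 55% GC minus that of 5197 below 45%. The tilt was 0.72, 0.20 and −0.097 in 6CD1m replicates 1 to 3, 0.62 and 0.53 in WT on PCI-34051 replicates 2 and 3, and between −0.39 and 0.13 in the other 10 libraries. The libraries carried high mesenchymal transcripts, with VIM at a mean of 3810 and FN1 at 1456 CPM (counts scaled to a library total of 1000000), although S100A4 was at 0.48. Among 7 markers of other cell types, EPCAM, CDH1, PTPRC and ALB never exceeded 2 counts, PECAM1 reached 9 counts, and RBFOX3 and CDH5 reached 2.02 and 2.85 CPM.

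Transcripts of 6 of the 7 sirtuins were found in every library, with between 132 and 740 counts each. Levels of different genes can be compared only per length, and per kilobase of exon SIRT6 was the most abundant, with a mean of 9.52 CPM per kb over the 15 libraries. SIRT7 followed at 4.65, SIRT1 at 4.26, SIRT3 at 3.37, SIRT2 at 3.28 and SIRT5 at 3.18 CPM per kb. SIRT4, a mitochondrial ADP-ribosyltransferase and deacylase, was far below at 0.176. SIRT6 ranked highest and SIRT4 lowest in each of the 5 groups, while the order of the other 5 members varied between groups. SIRT1 was next to SIRT6 in the 6CD2m, 8CDm and WT Tubastatin A groups, SIRT7 was next to it in the 6CD1m and WT PCI-34051 groups, and SIRT1 was sixth in WT cells on PCI-34051. The annotated exons of these genes come from several transcripts, so the per-length values depend on that annotation.

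**Figure D1:**
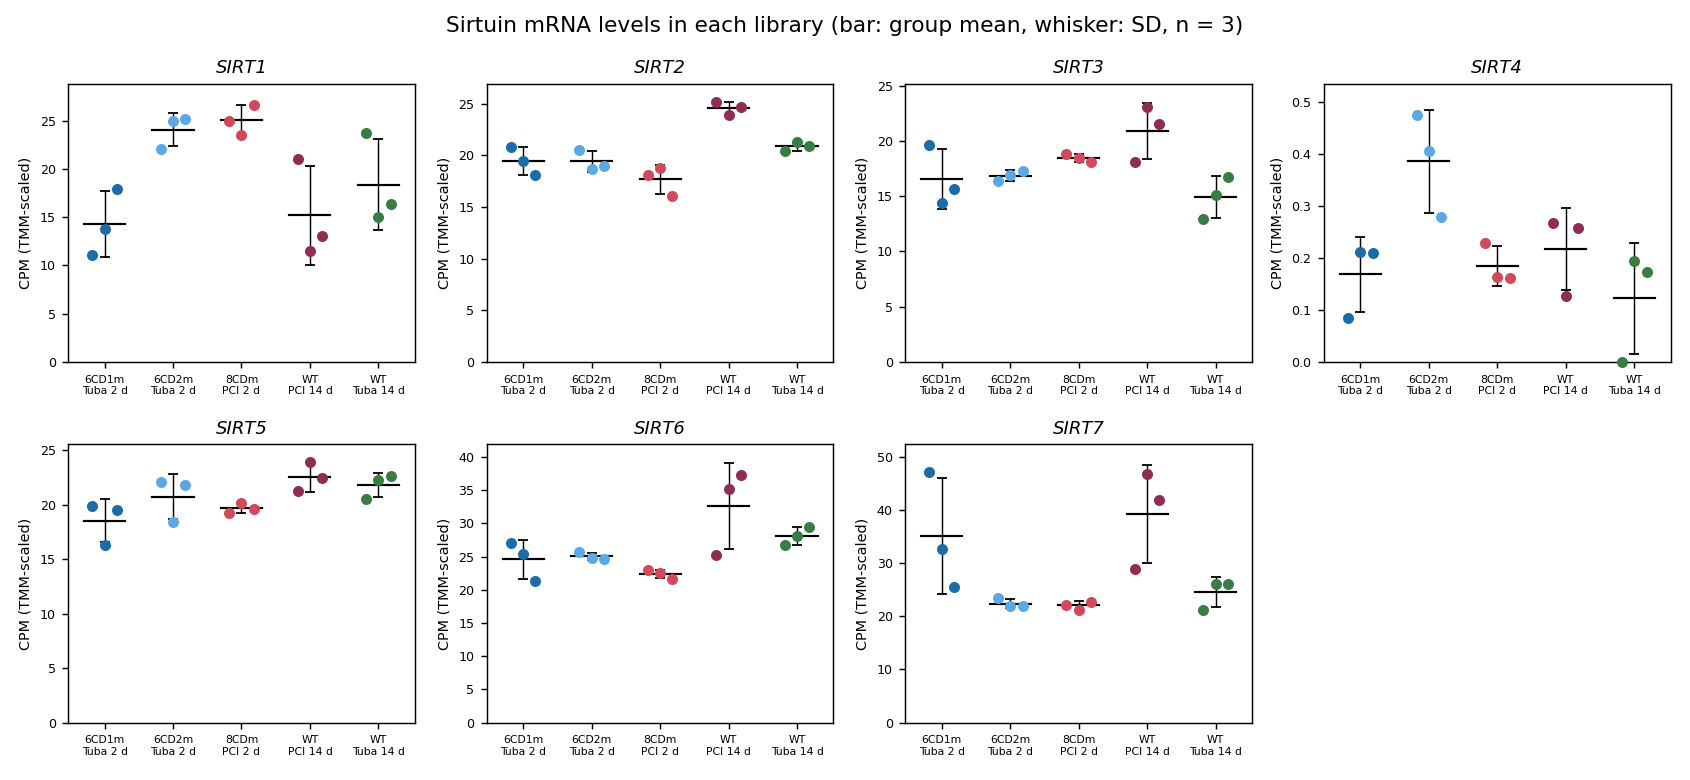
Level of each sirtuin in CPM (vertical axes, each starting at 0) in the 15 libraries by group (horizontal axis), with points for libraries, bars for group means and whiskers for the SD (n = 3). SIRT1 is higher in 6CD2m and 8CDm (22.1 to 26.6 CPM) than in 6CD1m (11.1 to 17.9 CPM), SIRT7 is spread between 25.5 and 47.1 CPM within 6CD1m, and SIRT4 stays at or below 0.474 CPM.

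SIRT1, which deacetylates FOXO factors and PGC-1α, was at 11.1, 13.8 and 17.9 CPM in 6CD1m, at 22.1, 24.9 and 25.1 CPM in 6CD2m and at 25.0, 23.5 and 26.6 CPM in 8CDm. In WT cells it was at 23.7, 14.98 and 16.3 CPM on Tubastatin A and at 21.1, 11.5 and 13.1 CPM on PCI-34051. All 6 libraries of 6CD2m and 8CDm stood above all 3 6CD1m libraries, and WT Tubastatin A replicate 1 lay among them. The first WT replicate on each inhibitor stood well above the other two. From lowest to highest, the group means were 14.3 ± 3.43 CPM in 6CD1m (SD, n = 3, here and below), 15.2 ± 5.13 in WT on PCI-34051, 18.3 ± 4.70 in WT on Tubastatin A, 24.0 ± 1.71 in 6CD2m and 25.0 ± 1.59 in 8CDm. The ranges of neighbouring groups in that order overlapped at each step, and the highest mean was 1.76 times the lowest.

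SIRT6, a chromatin-bound deacetylase of histone H3 that represses glycolytic genes, was at 27.1, 25.3 and 21.4 CPM in 6CD1m, at 25.6, 24.8 and 24.7 CPM in 6CD2m and at 23.0, 22.5 and 21.7 CPM in 8CDm. In WT cells it was at 26.7, 28.1 and 29.4 CPM on Tubastatin A and at 25.2, 35.2 and 37.3 CPM on PCI-34051. Its highest values were 2 of the 3 WT PCI-34051 libraries, and the third, replicate 1, lay among the 6CD2m libraries. The means ran from 22.4 ± 0.663 CPM in 8CDm through 24.6 ± 2.92 in 6CD1m, 25.1 ± 0.509 in 6CD2m and 28.1 ± 1.35 in WT on Tubastatin A to 32.6 ± 6.45 in WT on PCI-34051. Among neighbours in this order, only 6CD2m and WT on Tubastatin A had ranges that did not overlap.

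SIRT7, which acts at ribosomal DNA and deacetylates histone H3, was spread widely within 2 of the groups. It was at 47.1, 32.6 and 25.5 CPM in 6CD1m and at 28.96, 46.8 and 41.9 CPM in WT on PCI-34051. The other 3 groups were tight, at 23.4, 21.8 and 21.9 CPM in 6CD2m, 22.2, 21.2 and 22.7 CPM in 8CDm and 21.2, 26.1 and 26.1 CPM in WT on Tubastatin A. The means ran from 22.0 ± 0.774 CPM in 8CDm, 22.4 ± 0.922 in 6CD2m and 24.5 ± 2.81 in WT on Tubastatin A to 35.1 ± 11.0 in 6CD1m and 39.2 ± 9.21 in WT on PCI-34051, and neighbours in that order overlapped at each step. The highest mean was 1.78 times the lowest. SIRT7 shares 3054 bases with MAFG on the same strand, a gene at a mean of 93.7 CPM, so reads of this stretch could have been divided between them.

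SIRT2, the cytosolic tubulin deacetylase, was the steadiest within groups in WT cells. It was at 20.4, 21.3 and 20.9 CPM in WT on Tubastatin A and at 25.2, 23.9 and 24.7 CPM in WT on PCI-34051. In the mutants it was at 20.8, 19.5 and 18.1 CPM in 6CD1m, 20.5, 18.7 and 19.0 CPM in 6CD2m and 18.1, 18.8 and 16.1 CPM in 8CDm. All 3 WT PCI-34051 libraries stood above the other 12. The means were 17.7 ± 1.40 CPM in 8CDm, 19.4 ± 0.987 in 6CD2m, 19.5 ± 1.34 in 6CD1m, 20.9 ± 0.467 in WT on Tubastatin A and 24.6 ± 0.644 in WT on PCI-34051. Among neighbours in this order, only the pair of WT groups did not overlap.

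SIRT3, the main deacetylase of the mitochondrial matrix, was at 19.6, 14.4 and 15.6 CPM in 6CD1m, at 16.3, 16.9 and 17.3 CPM in 6CD2m and at 18.9, 18.4 and 18.1 CPM in 8CDm. WT cells had 12.9, 15.1 and 16.8 CPM on Tubastatin A and 18.1, 23.1 and 21.6 CPM on PCI-34051. The libraries of the pair of WT groups did not overlap, while those of 6CD1m spanned the whole range of the other mutants. Group means lay between 14.9 ± 1.91 CPM in WT on Tubastatin A and 20.9 ± 2.56 in WT on PCI-34051, with 16.5 ± 2.73 in 6CD1m, 16.9 ± 0.483 in 6CD2m and 18.5 ± 0.380 in 8CDm between them. Among neighbours in that order, only 6CD2m and 8CDm did not overlap.

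SIRT5, which removes succinyl, malonyl and glutaryl groups, varied least. It was at 19.9, 16.3 and 19.5 CPM in 6CD1m, 22.1, 18.4 and 21.8 CPM in 6CD2m, 19.2, 20.2 and 19.7 CPM in 8CDm, 20.6, 22.3 and 22.6 CPM in WT on Tubastatin A and 21.3, 24.0 and 22.5 CPM in WT on PCI-34051. Neighbouring groups overlapped at each step from the lowest mean, 18.6 ± 1.98 CPM in 6CD1m, through 19.7 ± 0.481 in 8CDm, 20.8 ± 2.06 in 6CD2m and 21.8 ± 1.12 in WT on Tubastatin A to the highest, 22.6 ± 1.34 CPM in WT on PCI-34051. The ratio of these last values was 1.22, the smallest among the 6 members tested.

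SIRT4 had between 0 and 8 counts in a library and did not pass the filter on low counts. Its counts were 1, 3 and 3 in 6CD1m and 0, 3 and 3 in WT on Tubastatin A, against 8, 8 and 5 in 6CD2m. With no filter its test across the 5 groups gave an adjusted p of 0.591 (edgeR quasi-likelihood, Benjamini-Hochberg). A difference in SIRT4 was not detectable at this depth.

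Each remaining sirtuin was tested with edgeR's quasi-likelihood method, adjusted after Benjamini and Hochberg over 19535 genes, at the false discovery rate of 0.001 that the study used. A fold change below is on the log2 scale with its standard error (SE). Libraries were bulk RNA, in which fewer cells with a transcript and less transcript per cell cannot be told apart. Across the 5 groups none of the 6 sirtuins passed at 0.001, where 24.6% of all genes did. An unadjusted p below 0.05 was found for 5 (67.2% of all genes). At 0.001 DESeq2 called 3, SIRT1, SIRT2 and SIRT7, beside 8600 of 19534 genes. At a false discovery rate of 0.05, 5 of 6 passed, against 61.9% of all genes. These were SIRT7 (adjusted p = 0.00335), SIRT2 (0.00591), SIRT1 (0.0134), SIRT6 (0.0177) and SIRT3 (0.0435) in edgeR's quasi-likelihood fit. SIRT5 had an adjusted p of 0.160. When each of the 15 libraries was left out in turn, SIRT3 passed at 0.05 in 3 fits, SIRT6 in 13, and SIRT1, SIRT2 and SIRT7 in 15. With offsets for the GC content of genes in each library, SIRT2 no longer passed at 0.05 (adjusted p = 0.162), SIRT5 did (0.0421), and SIRT7 passed at 0.001 (0.000745).

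The first question was whether an inactive catalytic domain changed sirtuin transcripts relative to WT cells on the same inhibitor. For KDAC8, none of 6 sirtuins passed at 0.001 in edgeR's quasi-likelihood fit (11.0% of all genes did). An unadjusted p below 0.05 was found for 4 (45.8% of all genes). At 0.001 DESeq2 called 2, SIRT2 and SIRT7, beside 3849 of 19534 genes. The 8CDm and WT PCI-34051 libraries did not overlap for 5 of the 6, all but SIRT3, where 48.1% of all genes did not overlap. SIRT2 differed by −0.48 (SE 0.096, 95% interval −0.68 to −0.27, adjusted p = 0.00141, edgeR quasi-likelihood with Benjamini-Hochberg adjustment), with lower values in 3 of 3 8CDm libraries than in any WT library. SIRT7 differed by −0.83 (SE 0.20, interval −1.25 to −0.41, adjusted p = 0.00410) and SIRT6 by −0.54 (SE 0.13, interval −0.82 to −0.26, adjusted p = 0.00511) in the same fit. SIRT1 stood the other way, at 0.71 (SE 0.22, interval 0.24 to 1.18, adjusted p = 0.0204). Those 4 passed a false discovery rate of 0.05, as did 36.1% of all genes. Without WT PCI-34051 replicate 1, the differences became −0.69 for SIRT6 (adjusted p = 0.000158) and −1.01 for SIRT7 (adjusted p = 0.000486), which passed at 0.001 in edgeR's test, and 1.03 for SIRT1 (adjusted p = 0.00115). SIRT1 stayed below 0.05 in 2 of the 6 fits that left out 1 library, with a highest adjusted p of 0.0999, while SIRT2, SIRT6 and SIRT7 did in 6 of 6. SIRT3 at −0.18 and SIRT5 at −0.20 had adjusted p of 0.312 and 0.173.

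For the second domain of KDAC6, no sirtuin passed at 0.001 (11.8% of all genes), none had an unadjusted p below 0.05 (42.3% of all genes) and DESeq2 called none. The differences between 6CD2m and WT on Tubastatin A lay between −0.16 for SIRT6 and 0.39 for SIRT1 on the log2 scale, and their 95% intervals between −0.55 and 0.86. Only SIRT6 had libraries that did not overlap, with 50.0% of all genes. Without WT Tubastatin A replicate 1 the SIRT1 difference was 0.66, with an adjusted p of 0.0485 in edgeR's quasi-likelihood fit. Each of these intervals included 0, and differences of either sign within them remained possible with 3 libraries a group.

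For the first domain, again no sirtuin passed at 0.001 (0.793% of all genes) or at 0.05 (9.40%), and DESeq2 called none. SIRT7 at 0.52 (SE 0.20, adjusted p = 0.0946 in edgeR's quasi-likelihood fit) and SIRT5 at −0.24 (SE 0.11, adjusted p = 0.154) were the 2 of 6 below an unadjusted p of 0.05, where 32.0% of all genes were. SIRT5 was also the member whose 6CD1m and WT Tubastatin A libraries did not overlap, with 31.0% of all genes. The SIRT7 value was 0.25 (adjusted p = 0.448) without 6CD1m replicate 1 and 0.68 (adjusted p = 0.0233) without 6CD1m replicate 3. With GC offsets SIRT6, at −0.19 without them, was at −0.54 (adjusted p = 0.0123) and SIRT5 at −0.31 (adjusted p = 0.0485), and both passed at 0.05. The 6CD1m and 6CD2m comparisons share their WT libraries.

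The arms were compared directly by an interaction term, the 6CD2m minus WT difference on Tubastatin A less the 8CDm minus WT difference on PCI-34051. No sirtuin passed at 0.001 (5.16% of all genes) or at 0.05 (19.3%), and 2 of 6 had an unadjusted p below 0.05 (32.2% of all genes). These were SIRT2 at 0.37 (SE 0.14, adjusted p = 0.0688) and SIRT7 at 0.70 (SE 0.28, adjusted p = 0.0902) in edgeR's quasi-likelihood fit. DESeq2 called none at 0.001, but SIRT2 passed at 0.05 by DESeq2 (adjusted p = 0.0273) and SIRT7 did not (0.0602). With GC offsets in edgeR's fit SIRT2 was at −0.0090 (adjusted p = 0.985) and SIRT7 at 0.36 (adjusted p = 0.130). Without WT PCI-34051 replicate 1, SIRT6 at 0.52 (adjusted p = 0.0147) and SIRT7 at 0.88 (adjusted p = 0.0159) passed at 0.05, which no sirtuin did in the other 11 fits that left out 1 library. With all libraries in edgeR's fit, the lower SIRT2, SIRT6 and SIRT7 values of 8CDm against WT were not shown to differ from those of 6CD2m against WT. For SIRT2 at 0.05 this depended on the test used.

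**Figure D2:**
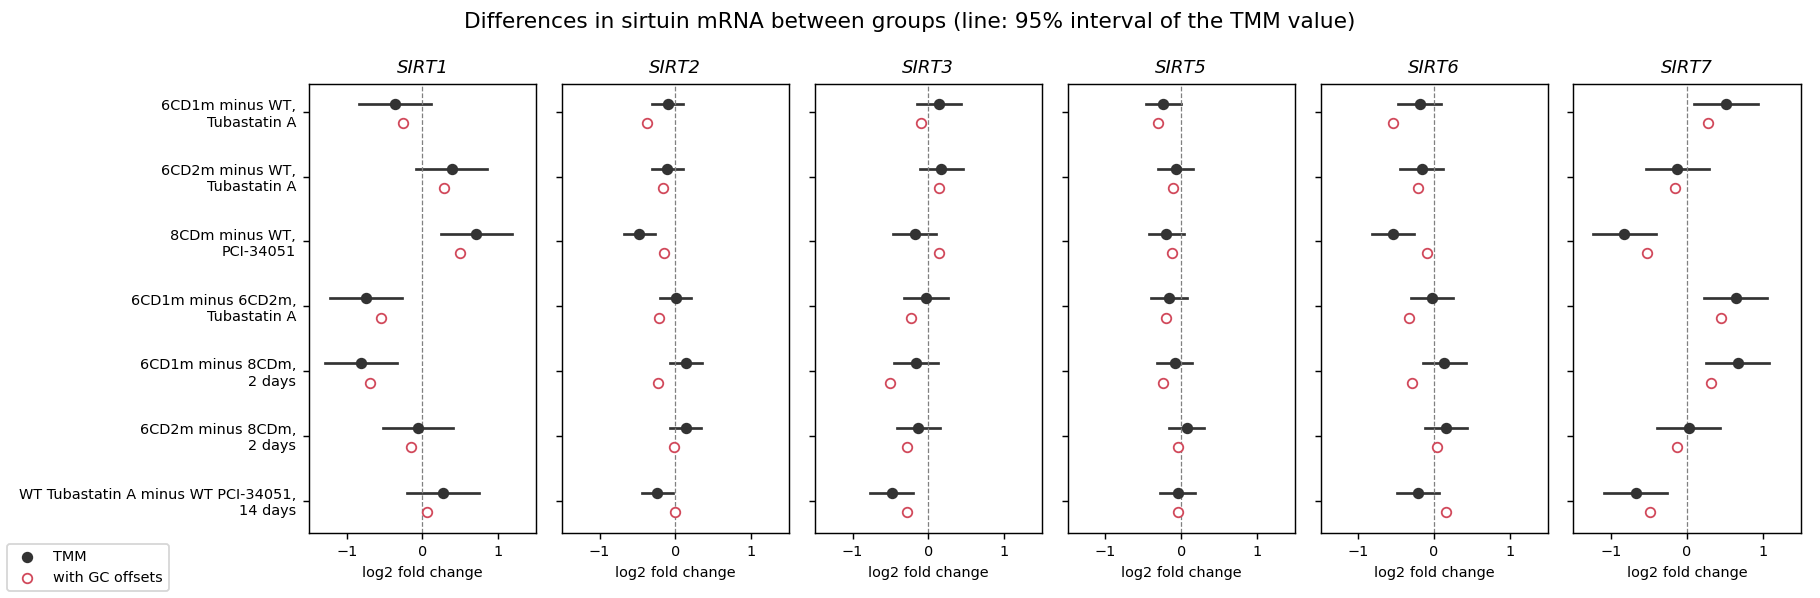
Log2 fold changes (horizontal axes) of the 6 tested sirtuins in the 7 comparisons between groups (rows), with filled points and lines for the TMM-scaled value and its 95% interval and open points for the value with GC offsets. With offsets, the 8CDm minus WT values of SIRT2 and SIRT6 move from −0.48 and −0.54 to −0.15 and −0.087, while SIRT1 stays at 0.50 and SIRT7 at −0.53.

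The KDAC6 domain mutants, on the same inhibitor, dose and time, differed in SIRT1 and SIRT7 at a false discovery rate of 0.05. SIRT1 was lower in 6CD1m by a log2 difference of −0.75 (SE 0.22, interval −1.23 to −0.27, adjusted p = 0.0153 in edgeR's quasi-likelihood fit) and SIRT7 higher by 0.65 (SE 0.20, interval 0.23 to 1.06, adjusted p = 0.0169). Neither passed at 0.001 (13.2% of all genes did). The count of 2 of 6 compared with 40.3% of all genes at 0.05, and the 2 of 6 without overlap with 51.7%. Those same 2 had an unadjusted p below 0.05 (49.0% of all genes), and DESeq2 called none at 0.001. Without 6CD1m replicate 1, the library with the smallest total and highest GC tilt, the SIRT7 difference was 0.38 (adjusted p = 0.104) and SIRT1 had an adjusted p of 0.0651. SIRT7 stayed below 0.05 in 3 of the 6 fits that left out 1 library. With GC offsets SIRT6, at −0.026 without them, was at −0.33 (adjusted p = 0.0477).

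Compared with 8CDm, 6CD1m again had lower SIRT1, by −0.81 (SE 0.22, interval −1.28 to −0.33, adjusted p = 0.0109), and higher SIRT7, by 0.67 (SE 0.20, interval 0.25 to 1.09, adjusted p = 0.0150), in edgeR's quasi-likelihood fit. No sirtuin passed at 0.001 here (11.1% of all genes) or by DESeq2, and 2 of 6 passed at 0.05 (37.7%), 2 had an unadjusted p below 0.05 (47.0%) and 2 did not overlap (50.7%). The SIRT7 value was 0.40 (adjusted p = 0.0915) without 6CD1m replicate 1, while SIRT1 stayed below 0.05 in 6 of 6 such fits. With GC offsets SIRT3, at −0.16 without them, was at −0.51 with an adjusted p of 0.000915, and SIRT7 was at 0.32 (adjusted p = 0.0386). Line and inhibitor changed together between these groups and cannot be told apart, and this comparison shares its 6CD1m libraries with the previous one.

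Between 6CD2m and 8CDm no sirtuin passed at 0.001 (9.96% of all genes) or at 0.05 (26.5%), none had an unadjusted p below 0.05 (35.8% of all genes), and DESeq2 called none. The 95% intervals of the 6 differences lay within −0.52 and 0.44 on the log2 scale. SIRT3 and SIRT6 did not overlap between these groups, where 51.6% of all genes did not. With GC offsets SIRT3, at −0.13 without them, was at −0.28 (adjusted p = 0.0404 in edgeR's quasi-likelihood fit).

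The inhibitors were compared in the same WT line at the same time. WT cells on Tubastatin A had less SIRT3 than those on PCI-34051, by −0.48 (SE 0.13, interval −0.77 to −0.20, adjusted p = 0.0359 in edgeR's quasi-likelihood fit), and less SIRT7, by −0.68 (SE 0.19, interval −1.10 to −0.26, adjusted p = 0.0413). Both passed at 0.05, as did 9.48% of all genes, and neither at 0.001 (0.420%). Replicate numbers paired the libraries of these groups, and with that block the adjusted p were 0.0713 for SIRT3 and 0.0807 for SIRT7. SIRT3 stayed below 0.05 in 2 and SIRT7 in 1 of the 6 fits that left out 1 library. Without WT PCI-34051 replicate 1, SIRT1 at 0.59 (adjusted p = 0.0435) and SIRT6 at −0.36 (adjusted p = 0.0214) passed at 0.05 as well. With GC offsets SIRT3 was at −0.28 (adjusted p = 0.0960), past 0.05 no longer, and SIRT7 at −0.49 (adjusted p = 0.0172). SIRT2, at −0.24, had an unadjusted p below 0.05 (30.0% of all genes) and an adjusted p of 0.119. SIRT2, SIRT3 and SIRT7 were the 3 of 6 whose libraries did not overlap (25.9% of all genes), and DESeq2 called none.

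The levels of SIRT1 and SIRT7 followed the GC tilt of the libraries closely. Over the 15 libraries, SIRT7 was higher at a higher tilt, at r = 0.983 (Spearman's rho 0.946). SIRT1 was lower, at r = −0.940 (rho −0.911). Without the 2 libraries farthest from the median level of the sirtuin itself, r was 0.963 for SIRT7 and −0.896 for SIRT1. Within groups, on deviations from each group's mean, the values were 0.968 for SIRT7 and −0.923 for SIRT1. The other 4 were less tightly tied to the tilt, although SIRT2, SIRT3 and SIRT6 were richer in GC than SIRT7 over the longest transcript. Over the coding sequence the order differed, with SIRT7 at 64.6%, above SIRT2 at 58.8% and SIRT3 at 61.2% and below SIRT6 at 67.4%. For SIRT6 r was 0.714 (rho 0.621, 0.443 without the 2 libraries farthest in SIRT6 level, 0.847 within groups). For SIRT3 it was 0.560 (rho 0.321, 0.317 without its own 2 farthest, 0.858 within groups). SIRT2 had 0.611 (rho 0.639, 0.723 without its own 2 farthest, 0.358 within groups). SIRT5 had 0.235 (rho 0.300, 0.276 without its own 2 farthest, 0.416 within groups). SIRT1 and SIRT7 mirrored each other across the libraries at r = −0.914 (rho −0.854), and at −0.911 within groups. SIRT2 and SIRT6 had an r of 0.794 (rho 0.832) across the libraries but 0.255 within groups. These 15 points share 5 groups, common scaling and the tilt itself, and are given as a description.

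**Figure D3:**
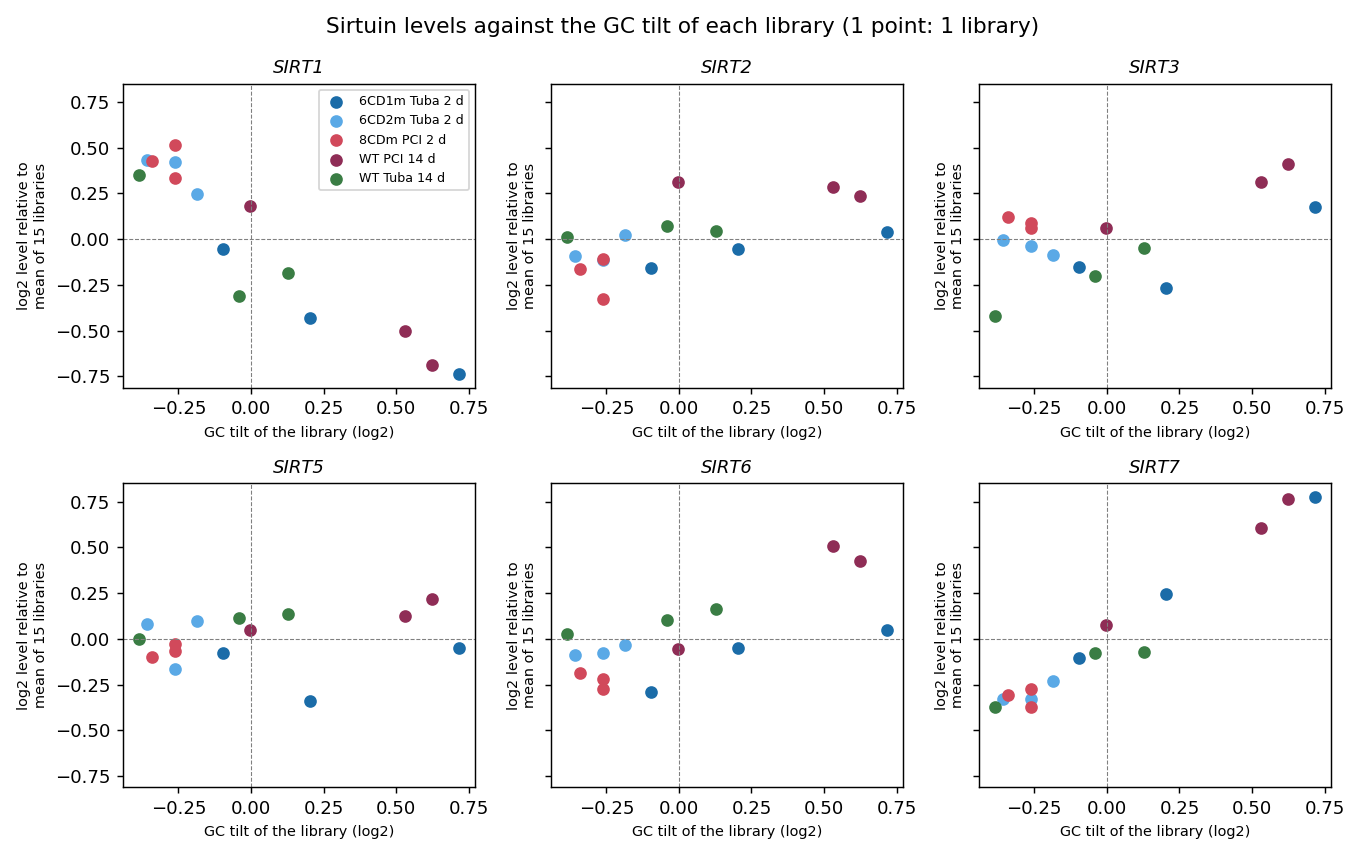
Log2 deviation of each tested sirtuin from its mean over the libraries (vertical axes) against the GC tilt of the library (horizontal axes, log2), 1 point per library in the color of its group. SIRT7 climbs (r = 0.983) and SIRT1 declines (r = −0.940) along the tilt, with 6CD1m replicate 1 at the right end at 0.72, while SIRT5 shows little slope (r = 0.235).

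The tilt also touched the comparisons. Over 13946 protein-coding genes, the log2 fold change correlated with GC content at a Spearman's rho of −0.454 for 8CDm minus WT, −0.493 for WT Tubastatin A minus PCI-34051 and 0.329 for 6CD1m minus 6CD2m. It was 0.383 for 6CD1m minus WT, 0.370 for 6CD1m minus 8CDm, −0.0995 for 6CD2m minus WT and 0.0339 for 6CD2m minus 8CDm. With offsets for GC content in each library, the 8CDm minus WT values were −0.15 for SIRT2 (adjusted p = 0.476), −0.087 for SIRT6 (adjusted p = 0.639), −0.53 for SIRT7 (adjusted p = 0.00261) and 0.50 for SIRT1 (adjusted p = 0.0347) in edgeR's quasi-likelihood fit. Thus SIRT2 and SIRT6 lost the call at 0.05 and SIRT1 and SIRT7 retained it. SIRT1 (−0.54, adjusted p = 0.0204) and SIRT7 (0.45, adjusted p = 0.00643) also retained it between the KDAC6 domain mutants. The offsets changed the sign of 11 of the 48 sirtuin values over the 8 comparisons. They used the GC content of the longest transcript, 56.5% for SIRT7, whose coding sequence was at 64.6%. Whether the SIRT7 calls hold with offsets from another measure of GC was not tested.

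The genes most similar to each sirtuin were taken by Pearson's r of log2 CPM over the 15 libraries among 10553 genes. For SIRT1 these were NOL10 (0.988), LNPEP (0.987) and POLR2M (0.987), with 42.7%, 38.8% and 37.6% GC. For SIRT7 they were RAB11FIP3 (0.979), TCIRG1 (0.978) and MTG1 (0.978), with 64.5%, 65.5% and 59.5% GC. The neighbours of the GC-poor SIRT1 were thus GC-poor and those of SIRT7 GC-rich. SIRT6 was closest to APCDD1L-AS1 (0.925), LAMA5 (0.917) and ZDHHC1 (0.913), SIRT2 to ALDH3B1 (0.945), VDR (0.934) and NDST2 (0.920), and SIRT3 to MLYCD (0.928), EXOC3 (0.915) and C16orf58 (0.911). SIRT5 had no close match, with CLTCL1 at 0.783, TRIM8 at 0.781 and RARG at 0.777. MLYCD, malonyl-CoA decarboxylase, is itself a mitochondrial protein.

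Some of the nearest tested protein-coding genes on each side of a sirtuin passed at 0.001. Of all genes, 11.8% did so in 6CD2m and 11.0% in 8CDm against WT. NFKBIB, PSMD13, HERC4, NOL7, MAFG and both neighbours of SIRT4 and of SIRT6 passed in no comparison between groups. RINL, next to SIRT2 on chromosome 19, rose by a log2 fold change of 2.27 in 6CD2m (adjusted p = 2.11e-06) and 2.25 in 8CDm (adjusted p = 3.28e-06) against WT in edgeR's quasi-likelihood fit. PCYT2, an enzyme of phosphatidylethanolamine synthesis next to SIRT7 on chromosome 17, fell by 1.31 (adjusted p = 4.31e-06) and 1.37 (adjusted p = 3.19e-06) in the same comparisons. RIC8A beside SIRT3 and GFOD1 beside SIRT5 passed with 6CD2m lower by 0.44 (log2 value −0.44, adjusted p = 0.00086) and higher by 0.61 (adjusted p = 0.000972) than WT. DNAJC12 beside SIRT1 passed between 6CD2m and 8CDm only, at 3.45 (adjusted p = 0.00091 in the same fit), where 9.96% of all genes passed. SIRT3 overlaps PSMD13 by 386 bases, SIRT2 overlaps NFKBIB by 163 and SIRT5 overlaps AL441883.1 by 1045, each on the opposite strand. Whether reads were counted by strand was not given, so reads in those stretches cannot be assigned to a strand.

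The genes that supply, share or respond to sirtuin activity were described in 6 lists with 85 members, of which 76 were tested. In 6CD2m against WT on Tubastatin A, 16 of 76 (21.1%) passed at 0.001, 7 higher and 9 lower, beside 4.61% of all genes higher and 7.22% lower. Leaving out 1 library gave 9 to 12, with 9 without 6CD2m replicate 1 or 3 or WT Tubastatin A replicate 3 and 10 without WT Tubastatin A replicate 2. Over all genes these fits called 1441 to 1635, beside 2310 in the main fit. In 8CDm against WT on PCI-34051, 10 of 76 (13.2%) passed, 2 higher and 8 lower, beside 4.69% and 6.27% of all genes. With GC offsets the latter count was 4, beside 1749 of 19381 genes. With only the libraries compared in the fit it was 5, beside 829 of 17683 genes. In 6CD1m against WT, of 76, none passed in edgeR's quasi-likelihood fit (0.793% of all genes did) and 28 had an unadjusted p below 0.05 (32.0% of all genes). DESeq2 called 3 of them, beside 616 of 19534 genes. Between the WT groups 1 gene, NMNAT2, passed at 0.001 (0.420% of all genes) and 33 had an unadjusted p below 0.05 (30.0% of all genes). DESeq2 called 6 of the 76, beside 705 of 19534 genes. The interaction between the arms passed for 8 of 76, 5 with a positive and 3 with a negative value, beside 2.51% and 2.65% of all genes. That count was 5 without 6CD2m replicate 1 or 3, 8CDm replicate 3 or WT Tubastatin A replicate 3. Over all genes these fits called 676, 700, 695 and 772, beside 1008 in the main fit.

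Some markers of cell identity moved with these groups. CDH5, the endothelial cadherin, had 28, 31 and 25 counts in 6CD2m and 46, 39 and 53 in 8CDm. Its counts were 3, 3 and 3 in WT on Tubastatin A, 0, 0 and 0 in WT on PCI-34051 and 4, 3 and 2 in 6CD1m. It passed at 0.001 in 6CD2m (adjusted p = 4.96e-05) and 8CDm (adjusted p = 6.53e-07) against WT in edgeR's quasi-likelihood fit, and no fold change is given because the WT counts were at the floor of 3. FN1, the fibronectin of mesenchymal cells, had means of 425 CPM in 6CD2m, 1205 in 6CD1m, 1214 in WT on Tubastatin A, 1414 in WT on PCI-34051 and 3023 in 8CDm. It fell in 6CD2m against WT by 1.51 on the log2 scale (adjusted p = 6.87e-05 in edgeR's quasi-likelihood fit). Of the 8 mesenchymal markers, 1 was higher and 3 lower in 6CD2m against WT at 0.001, beside 4.61% and 7.22% of all genes. In 8CDm against WT 0 were higher and 3 lower, beside 4.69% and 6.27%. COL6A1 went the other way from FN1, at 0.63 in 6CD2m and −0.87 in 8CDm against WT on the log2 scale. The medians over these 8 markers were 0.058 and −0.072. The part of these markers in the results was not tested.

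The NAD+ synthesis and salvage list held 20 genes. Its median log2 fold change in 6CD2m against WT was 0.37 over 14 tested members, beside −0.011 over all genes. At 0.001, 2 were higher and 1 lower, beside 4.61% and 7.22% of all genes. NMNAT1, the nuclear enzyme that completes NAD+ from its mononucleotide, was at 13.7, 13.7 and 13.8 CPM in 6CD2m, 4.53, 4.99 and 4.62 CPM in WT on Tubastatin A, 3.54, 4.07 and 4.25 CPM in 6CD1m, 5.30, 6.18 and 6.23 CPM in 8CDm and 6.61, 4.99 and 6.31 CPM in WT on PCI-34051. The 6CD2m libraries stood alone at the top. NMNAT1 rose in 6CD2m by a log2 fold change of 1.55 against WT (adjusted p = 1.21e-06) and was lower in 6CD1m than in 6CD2m by 1.80 (log2 value −1.80, adjusted p = 4.43e-07) in edgeR's quasi-likelihood fit. The difference from the KDAC8 arm also passed, with an interaction of 1.56 (adjusted p = 6.89e-05).

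NAMPT, the rate-limiting enzyme of NAD+ salvage, was at 207, 224 and 234 CPM in 6CD2m and 123, 84.0 and 80.3 CPM in WT on Tubastatin A. It was lowest in 6CD1m at 31.7, 48.6 and 56.3 CPM, and lay between at 120, 121 and 127 CPM in 8CDm and 101, 63.0 and 66.0 CPM in WT on PCI-34051. The 6CD1m, WT Tubastatin A and 6CD2m ranges did not overlap. It was higher in 6CD2m than in WT by 1.21 (adjusted p = 0.000391) and lower in 6CD1m than in 6CD2m by a log2 value of −2.28 (adjusted p = 1.64e-06) in edgeR's quasi-likelihood fit. The call against WT was lost when any library but WT Tubastatin A replicate 1 was left out, while that between the mutants held in 6 of 6 such fits.

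NMNAT2, the cytosolic form, moved otherwise. It was at 2.68, 2.28 and 3.06 CPM in 8CDm, 8.00, 6.83 and 7.41 CPM in WT on PCI-34051, 7.52, 9.73 and 8.68 CPM in 6CD2m, 10.2, 11.3 and 12.8 CPM in 6CD1m and 15.6, 16.01 and 17.97 CPM in WT on Tubastatin A. The 8CDm libraries were lowest and the WT Tubastatin A libraries highest, without overlap with the other groups. NMNAT2 fell in 8CDm against WT (log2 value −1.47, adjusted p = 7.09e-06, in 6 of 6 fits that left out 1 library) and in 6CD2m against WT (−0.93, adjusted p = 0.000143) in edgeR's quasi-likelihood fit. The latter call was lost without 6CD2m replicate 1 or 3 or WT Tubastatin A replicate 2 or 3. WT cells on Tubastatin A had more than on PCI-34051 by 1.16 (adjusted p = 0.000387), a call lost with the replicate block (adjusted p = 0.00177) and in every fit that left out 1 library but the one without WT PCI-34051 replicate 1. In 8CDm, KYNU of the kynurenine route had 44, 42 and 45 counts against 6, 4 and 10 in WT on PCI-34051 (2.55, adjusted p = 0.000487, lost in each fit without 1 library but WT PCI-34051 replicate 3). QPRT, of the same route, had 41, 40 and 39 counts in 6CD2m and 6, 6 and 4 in 6CD1m, a log2 difference of −2.45 of 6CD1m from 6CD2m (adjusted p = 0.000141).

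Other NAD+-consuming enzymes numbered 11, all tested, with a median of 0.044 in 6CD2m and 0.10 in 8CDm against WT. In 6CD2m, 2 were higher and 1 lower at 0.001, beside 4.61% and 7.22% of all genes. In 8CDm none passed at 0.001 (11.0% of all genes did). At a false discovery rate of 0.05, 3 were higher and 2 lower in 8CDm, beside 17.6% and 18.5% of all genes. PARP3, a polymerase that answers DNA breaks, was at 14.3, 20.3 and 16.6 CPM in 6CD2m and 32.3, 28.1 and 30.9 CPM in WT on Tubastatin A, without overlap (−0.83, adjusted p = 0.000155, lost without 6CD2m replicate 1 or 3 or WT replicate 1 or 3). It was also lower in 6CD2m than in 8CDm by a log2 value of −1.26 (adjusted p = 3.02e-06). PARP14 was higher in 6CD2m than in WT by 0.57 (adjusted p = 0.000455), which was lost in each fit that left out 1 library but WT replicate 1. CD38, a NAD+ glycohydrolase, had 17, 17 and 27 counts in 6CD2m and 1, 3 and 3 in WT on Tubastatin A. Its WT counts were at the floor of 3, so no fold change is given, and its call was lost in each of the 6 fits that left out 1 library.

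Of 8 genes known to regulate sirtuins, E2F1, a cell cycle factor that binds the SIRT1 promoter, passed in both the 6CD2m and 8CDm comparisons with WT and the other 7 in neither. Of all genes, 11.8% and 11.0% passed in these comparisons. The medians over the list were −0.23 and −0.28. E2F1 was at 18.1, 19.3 and 17.1 CPM in 6CD2m, 16.2, 18.5 and 18.1 CPM in 8CDm, 53.4, 47.0 and 41.9 CPM in 6CD1m, 40.7, 39.4 and 48.2 CPM in WT on Tubastatin A and 31.6, 35.1 and 34.1 CPM in WT on PCI-34051. The 6CD2m and 8CDm libraries lay below all others. E2F1 fell by 1.24 in 6CD2m (adjusted p = 1.04e-06) and by 0.93 in 8CDm (adjusted p = 2.19e-05) against WT on the log2 scale in edgeR's quasi-likelihood fit. With GC offsets the 8CDm value was −0.55 (adjusted p = 0.00462), past the 0.001 threshold no longer.

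Among 16 nuclear and cytosolic substrates, 5 passed in 6CD2m against WT and 4 in 8CDm against WT, beside 11.8% and 11.0% of all genes. The medians over the list were −0.19 and 0.011. EP300, the p300 acetyltransferase, was at 89.0, 90.3 and 93.7 CPM in 6CD2m and between 160 and 196 CPM in the other 12 libraries (−0.89 against WT, adjusted p = 7.44e-07 in edgeR's quasi-likelihood fit). BUB1B, a spindle checkpoint kinase and SIRT2 substrate, differed by −1.01 (adjusted p = 4.74e-05) and ACSS2, cytosolic acetyl-CoA synthetase, by −0.95 (adjusted p = 2.59e-06) in 6CD2m.

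In 8CDm against WT on PCI-34051, ACSS2 fell by 0.82 on the log2 scale (adjusted p = 1.48e-05 in edgeR's quasi-likelihood fit), and with GC offsets was at −0.58 (adjusted p = 0.00572). PPARGC1A, the mitochondrial coactivator PGC-1α, rose by 1.304 (adjusted p = 0.000404), a call lost in each fit without 1 library but WT PCI-34051 replicate 1. FOXO3, named after its values were seen, was at −0.80 (adjusted p = 2.84e-06), with 51.9, 52.1 and 48.9 CPM in 8CDm beside 96.3, 85.3 and 85.3 CPM in WT.

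Of 20 mitochondrial substrates 18 were tested, and their medians of −0.055 in 6CD2m and −0.0045 in 8CDm against WT lay near those of all genes (−0.011 and −0.041). In 6CD2m 2 were higher and 1 lower at 0.001, beside 4.61% and 7.22% of all genes. In 8CDm 3 were lower, beside 6.27% of all genes. SOD2, the mitochondrial superoxide dismutase that SIRT3 deacetylates, was at 160, 160 and 174 CPM in 6CD2m, 75.0, 69.6 and 61.9 CPM in WT on Tubastatin A, 41.6, 51.6 and 53.7 CPM in 6CD1m, 73.8, 53.9 and 56.6 CPM in WT on PCI-34051 and 32.1, 30.0 and 30.6 CPM in 8CDm. It stood highest in 6CD2m and lowest in 8CDm, without overlap with any other group. SOD2 rose by a log2 fold change of 1.26 in 6CD2m (adjusted p = 2.13e-06) and fell by 0.99 in 8CDm (adjusted p = 3.21e-05) against WT in edgeR's quasi-likelihood fit. The interaction was 2.25 (adjusted p = 4.01e-07), and leaving out any 1 library or adding GC offsets kept these 3 calls.

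ALDH2, mitochondrial aldehyde dehydrogenase, was at 75.5, 77.5 and 71.8 CPM in 6CD2m and between 21.7 and 31.9 CPM elsewhere. It rose by 1.51 against WT (adjusted p = 1.01e-06) and the interaction was 1.72 (adjusted p = 1.83e-05) in edgeR's quasi-likelihood fit. IDH2, the NADP+-dependent isocitrate dehydrogenase that SIRT3 activates, was at 5.98, 4.55 and 7.52 CPM in 8CDm and 17.1, 12.8 and 11.98 CPM in WT on PCI-34051 (−1.22, adjusted p = 0.000142). That call was lost without 8CDm replicate 1 or 2 and with GC offsets (adjusted p = 0.00833). PPIF, the cyclophilin of the permeability transition pore, fell by 0.54 in 6CD2m (adjusted p = 0.000241, lost in each fit without 1 library) and by 0.83 in 8CDm (adjusted p = 5.23e-06), where GC offsets gave −0.62 (adjusted p = 0.00383). ACSS1 had 2, 1 and 2 counts in 6CD2m, at the floor, beside 20, 25 and 31 in 8CDm.

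**Figure D4:**
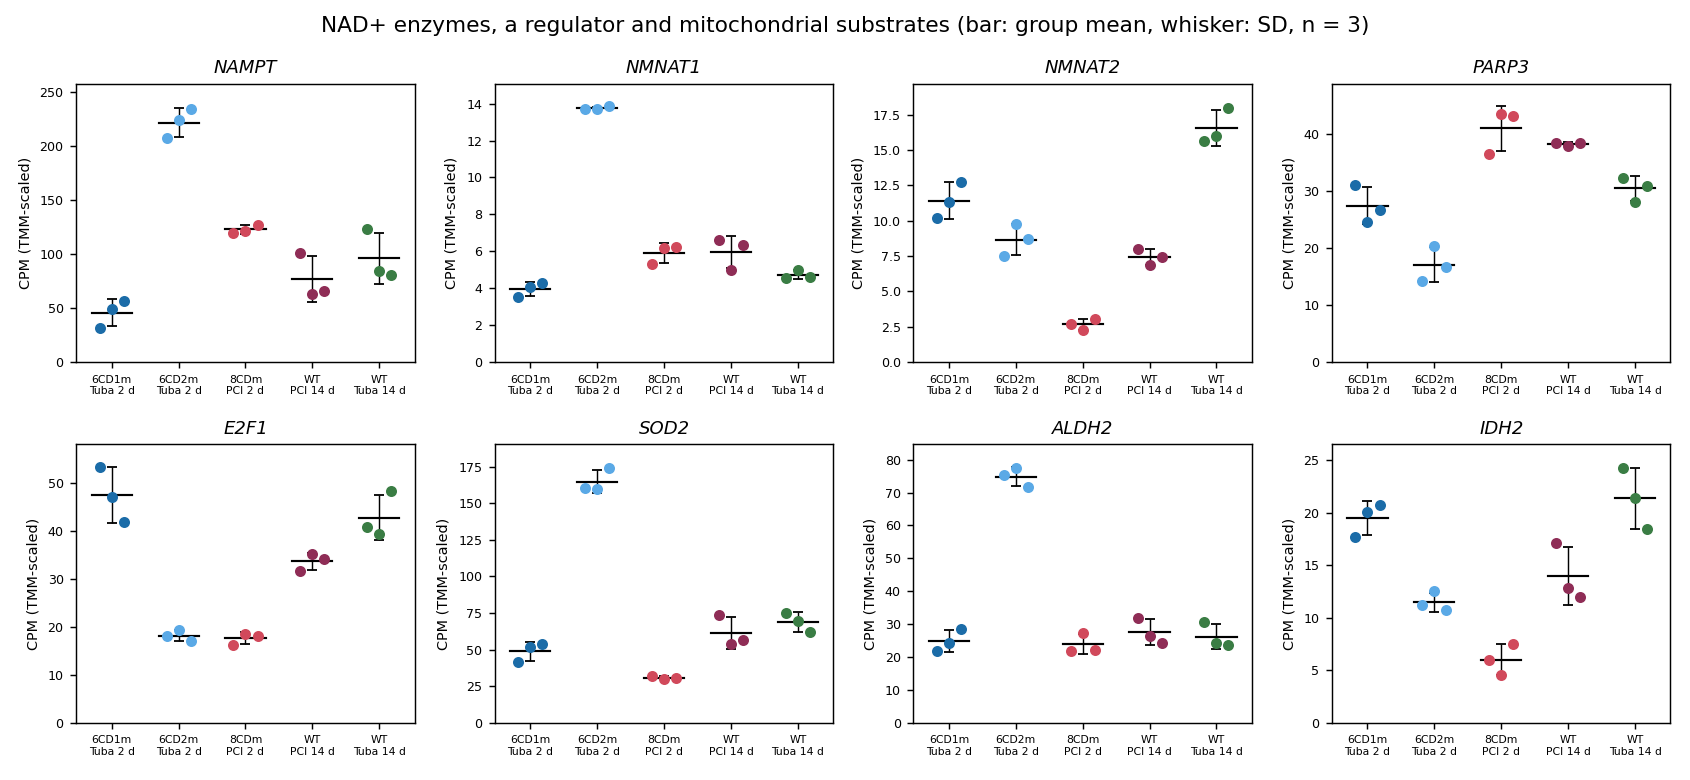
Levels in CPM (vertical axes, each starting at 0) of 8 genes from the NAD+ and substrate lists in the 15 libraries by group (horizontal axis), with points for libraries, bars for means and whiskers for the SD (n = 3). NMNAT1 (13.7 to 13.8 CPM), SOD2 (160 to 174 CPM) and ALDH2 (71.8 to 77.5 CPM) are highest in 6CD2m, NMNAT2 (2.28 to 3.06 CPM) is lowest in 8CDm, and NAMPT is lowest in 6CD1m (31.7 to 56.3 CPM).

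The glycolytic genes that SIRT6 represses numbered 10, of which 9 were tested. PFKM was the only member of the list that passed at 0.001 in a comparison with WT. It was lower in 6CD2m by a log2 value of −0.73 (adjusted p = 1.77e-06 in edgeR's quasi-likelihood fit), a comparison in which 11.8% of all genes passed. PFKM was at 104, 98.8 and 106 CPM in 6CD2m and 178, 167 and 167 CPM in WT on Tubastatin A. The median of the list was −0.20 in 6CD2m, −0.43 in 6CD1m and 0.16 in 8CDm against WT, and 0.51 between WT on Tubastatin A and on PCI-34051, where 4 members were higher at a false discovery rate of 0.05, beside 5.89% of all genes.

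Between the KDAC6 mutants 20 of 76 list members passed (26.3%), 10 higher and 10 lower in 6CD1m, beside 6.54% and 6.65% of all genes. Over all 19535 genes 2578 passed. With the replicate block 11 list members passed, beside 1723 of 19535 genes. The list count was 9 without 6CD2m replicate 3, 10 without 6CD1m replicate 2, 11 without 6CD2m replicate 2 and 13 without 6CD2m replicate 1. Over all genes these fits called 1423, 1501, 1463 and 1594. With only the libraries compared in the fit the list count was 7, beside 1088 of 17925 genes. NMNAT1 and NAMPT (above), ALDH2 at −1.59 (adjusted p = 8.08e-07) and SOD2 at −1.75 (adjusted p = 1.07e-07) were lower in 6CD1m in edgeR's quasi-likelihood fit. E2F1 at 1.385 (adjusted p = 4.15e-07) and EP300 at 0.89 (adjusted p = 8.42e-07) were higher, and leaving out any 1 library kept these 6 calls. Against 8CDm, 11 list members passed in 6CD1m (8 higher and 3 lower, beside 5.99% and 5.07% of all genes) and 11 in 6CD2m (7 higher and 4 lower, beside 5.60% and 4.37%). In the main fit 2161 and 1946 of 19535 genes passed. The first list count was 7 without 6CD1m replicate 2 or 8CDm replicate 1 or 3, where 1281, 1282 and 1252 of all genes passed. With only the libraries compared in the fit the list counts were 6 and 24, beside 890 of 17588 and 4179 of 18012 genes. KYNU had 4, 1 and 1 counts in 6CD1m and 44, 42 and 45 in 8CDm. Its value was the largest of the first set (−3.93, adjusted p = 5.14e-05, edgeR quasi-likelihood), but its 6CD1m counts were near the floor of 3. NMNAT2 at 2.09 (adjusted p = 1.84e-07) and IDH2 at 1.70 (adjusted p = 6.07e-06) followed in edgeR's quasi-likelihood fit. In the second set, leaving aside ACSS1 with its group at the floor, SOD2 differed most, at 2.42 (adjusted p = 3.21e-09).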

How the data were processed

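The deposited table holds expected counts per gene for 15 libraries, which the authors made from rRNA-depleted, paired-end reads. The submitters' processing notes name Trimmomatic 0.39, Bowtie2 2.4.5, RSEM 1.3.3, DESeq2 1.38.2 and GRCh38. The annotation release and the strand setting were not given in the sources used here. RSEM shares reads that match several genes or transcripts, and 21.8% of the nonzero values were not whole, so a gene that overlaps another, such as SIRT7, can carry reads estimated to be its own.

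Expected counts were rounded and analysed with edgeR 4.0.16 and limma 3.58.1 in R 4.3.3 (Benjamini-Hochberg adjustment over 19535 genes that passed filterByExpr). All 15 libraries entered 1 quasi-likelihood fit with TMM scaling and group as the factor, from which the 7 comparisons between groups, the interaction and the test of any difference among the 5 groups were drawn. The threshold was a false discovery rate of 0.001, with 0.05 as a second. CPM values use TMM-scaled totals. Library totals ran from 10932455 to 19983710, which gave each tested sirtuin at least 132 counts. Tables were made with Python 3.11.15, pandas 2.3.3, numpy 2.4.6 and scipy 1.17.1.

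Of the identifiers, 57055 of 60675 matched GENCODE 29. Gene positions, the GC content of each gene's longest transcript (99.2% of tested genes) and the printed coding stretches were taken from it. GC offsets were a smooth curve (6 degrees of freedom, pseudocount 0.5) fitted to each library's log2 deviations. The scripts were tested on simulated counts with known fold changes.

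The 3 libraries of a group are biological replicates per the methods of the study. Replicate numbers were taken from the labels. Same-numbered libraries deviated together from their group means in each of 3 pairs for WT on the 2 inhibitors (r = 0.840, 0.539 and 0.573 over 10553 genes) and for 6CD1m with 6CD2m (0.529, 0.191 and 0.318). The r were smaller for 6CD1m with 8CDm (0.098, 0.061 and 0.013) and mixed in sign for 6CD2m with 8CDm (0.353, 0.368 and −0.129). They were negative for 6CD1m (−0.786, −0.336 and −0.710) and 6CD2m (−0.596, −0.357 and −0.249) with WT on Tubastatin A. For 8CDm with WT on PCI-34051 they were negative as well (−0.194, −0.122 and −0.055). A further fit had the replicate number as a block, with the same replicate terms for all 5 groups. It was therefore not a paired test of any single pair of groups. The alternatives tried were DESeq2 1.42.0, other scalings, filters and thresholds, protein-coding genes alone and the compared libraries alone. GC offsets, the replicate block and leaving out each library in turn were tried as well.

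The sirtuins and the gene lists were chosen with earlier results of these data known. The genes named are the 7 sirtuins, the 3 genes most similar to each among those with a mean log2 CPM of at least 3, the nearest tested protein-coding gene on each side, and up to 3 genes per list and comparison with the largest log2 fold change among those that passed. No fold change is given where every library of a group held 3 counts or fewer. Untreated cells and WT cells at 2 days were not analysed here. Some calls of the substrate lists are counted but not reported here by gene.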

Additional observations from a re-analysis of the deposited data

Results flagged for a closer look

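No sirtuin met a rule for a closer look: none passed the test of whether the mutant minus WT difference on Tubastatin A (6CD2m) differed from that on PCI-34051 (8CDm), and groups of 3 libraries are too small to test for a library that stands apart. Among the genes of the NAD+ and substrate lists, 6 reported here with more than 3 counts in some library of each group passed this test of the difference itself in edgeR's quasi-likelihood fit. NMNAT1 differed by 1.56 on the log2 scale, with a rise in 6CD2m and no call in 8CDm (adjusted p = 6.89e-05). SOD2 differed by 2.25 (adjusted p = 4.01e-07), with a rise in 6CD2m and a fall in 8CDm. ALDH2 differed by 1.72 (adjusted p = 1.83e-05), with a rise in 6CD2m and no call in 8CDm. FOXO3 differed by 1.00 (adjusted p = 1.58e-05), with a fall in 8CDm and no call in 6CD2m. EP300 differed by −0.83 (adjusted p = 8.32e-05), with a fall in 6CD2m and no call in 8CDm. BUB1B differed by −1.26 (adjusted p = 0.000285), a call that held in 2 of the 12 fits that left out 1 library (those without 8CDm replicate 1 or WT PCI-34051 replicate 1).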

How the results depend on the processing

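At the main settings 0 sirtuins passed in each of the 9 tests, and 166 of 184 alternatives to these counts also gave 0. At a false discovery rate of 0.05 the counts were 5 across the 5 groups, 4 for 8CDm minus WT, and 2 each for 6CD1m minus 6CD2m, 6CD1m minus 8CDm and WT Tubastatin A minus PCI-34051. DESeq2 gave 3 across the groups and 2 for 8CDm minus WT, beside 8600 and 3849 of 19534 genes. With no filter on low counts the values were 2 across the groups, 1 for 8CDm minus WT and 1 for 6CD1m minus 8CDm. Beside them 7339, 3030 and 3190 of 35642 genes passed. A minimum of 10 counts in every library, or protein-coding genes alone, gave 1 for 8CDm minus WT (beside 2116 of 14455 and 2442 of 13958 genes). GC offsets gave 1 across the groups, SIRT7, and 1 for 6CD1m minus 8CDm, SIRT3, beside 5066 and 2444 of 19381 genes. Leaving out each library in turn gave 0 to 3 across the groups and 0 to 2 for 8CDm minus WT, the highest in both without WT PCI-34051 replicate 1. In that fit 6057 and 2593 of 20189 genes passed. Why these counts moved was not tested, except that a laxer threshold passes more genes by construction. With the replicate block every count stayed at 0, and at 0.05 it ended the calls of SIRT3 and SIRT7 between the WT groups and of SIRT3 across the 5 groups (adjusted p = 0.0804, edgeR) and no other of a sirtuin. The block was shared by all 5 groups, although same-numbered libraries deviated in opposite directions between each mutant line and WT on the same inhibitor. They deviated together between the WT groups and between 6CD1m and 6CD2m. For 6CD1m with 8CDm the r were positive as well but at most 0.098. Of the 48 fold changes of sirtuins, 11 changed sign under GC offsets, 4 under upper-quartile scaling, 3 with protein-coding genes alone and 0 under the block. Of 2613 alternatives for single genes, 2277 kept their side of the threshold, 296 lost the call, 35 gained it, 5 moved (the genes most similar to SIRT1, SIRT2, SIRT3, SIRT6 and SIRT7, by Spearman's rho in place of Pearson's r) and 0 reversed. With 3 libraries a group and 132 to 740 counts for a tested sirtuin, differences of any size within a printed interval remained possible, and SIRT4 could not be compared.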

Other observations

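SIRT5 lies on chromosome 6, whose genes stood lower in 8CDm than in WT on PCI-34051. The median log2 fold change of 720 tested genes there was −0.34 (−0.31 with GC offsets), beside −0.20 for SIRT5 (−0.12 with GC offsets) and a median of 0.31 over the 8 genes within 1000000 bases of it. This was seen after the values were known and has no test.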
